A study of Mus musculus with 6 samples.

Results

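Cholesterol and fatty acid synthesis genes were read in RNA from sorted mouse skeletal stem cells (mSSCs), which renew themselves and give rise to bone, cartilage and stroma, taken from the Achilles tendon-to-bone interface of C57BL/6 mice. The set has 31 genes, chosen by symbol from a table of 26130 genes: 7 of the mevalonate pathway, 11 of the steps from squalene to cholesterol, 6 that control or carry sterols, and 7 of fatty acid synthesis. All 31 had a row and all 31 passed the filter on low counts. The groups were sham control (n = 2), uninjured (n = 1) and injured, with a partial injury of the interface (n = 3), all at day 7. The library titled uninjured carries a description that calls it a sham, so it stood alone in the first comparison and was joined to the sham libraries in the second. The sources used here do not say whether a library is 1 animal or a pool, nor give sort markers, ages or sexes. The p-values therefore measure the spread between these samples only, and that spread may be technical.

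Cells build cholesterol from acetyl-CoA through mevalonate and the isoprenoid farnesyl pyrophosphate, which is joined into squalene, closed into the first sterol and trimmed to cholesterol. Fatty acids come from the same acetyl-CoA, which ATP citrate lyase supplies, by carboxylation, chain synthesis, elongation and desaturation. The sterol regulatory element binding proteins (SREBPs) switch both pathways on. They are held in the endoplasmic reticulum by Scap and the Insig proteins when sterols are plentiful, and are cut free when sterols run low. SREBP-2, the product of Srebf2, acts mainly on cholesterol genes, and SREBP-1c, from Srebf1, mainly on fatty acid genes. Insig1 is itself a target, which closes a feedback loop.

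Promoter sequences are shown for 4 of the genes whose levels were lowest in sham 1 and injured 1 and highest in sham 2 (Hmgcs1, Insig1, Msmo1 and Idi1). They are also shown for Srebf2, which encodes their activator and varied little. Cyp51, Sqle, Hsd17b7 and Stard4 had the same lowest and highest libraries and are not shown. The windows are RefSeq's on GRCm38.p6, from 250 bases before to 50 bases after the gene's start, and these 5 were picked after the levels were seen. Capitals mark matches on either strand to CCAAT, the box bound by the SREBP cofactor NF-Y (read as ATTGG on the other strand), and to CACNCCAC, the core of the sterol regulatory element.

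Hmgcs1 (chr13:119690101-119690400, plus strand): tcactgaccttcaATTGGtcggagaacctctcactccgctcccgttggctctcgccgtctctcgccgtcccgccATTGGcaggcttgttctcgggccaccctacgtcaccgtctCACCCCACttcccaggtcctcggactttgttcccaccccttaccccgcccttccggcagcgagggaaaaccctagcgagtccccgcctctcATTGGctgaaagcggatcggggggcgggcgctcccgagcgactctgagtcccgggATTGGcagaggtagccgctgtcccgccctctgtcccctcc

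Insig1 (chr5:28071162-28071461, plus strand): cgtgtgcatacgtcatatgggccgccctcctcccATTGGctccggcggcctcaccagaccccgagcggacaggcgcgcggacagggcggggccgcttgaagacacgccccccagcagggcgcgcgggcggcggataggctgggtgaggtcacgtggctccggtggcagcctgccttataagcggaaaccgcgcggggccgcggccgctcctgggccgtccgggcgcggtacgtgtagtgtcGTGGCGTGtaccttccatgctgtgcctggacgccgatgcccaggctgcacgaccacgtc

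Msmo1 (chr8:64733529-64733828, minus strand): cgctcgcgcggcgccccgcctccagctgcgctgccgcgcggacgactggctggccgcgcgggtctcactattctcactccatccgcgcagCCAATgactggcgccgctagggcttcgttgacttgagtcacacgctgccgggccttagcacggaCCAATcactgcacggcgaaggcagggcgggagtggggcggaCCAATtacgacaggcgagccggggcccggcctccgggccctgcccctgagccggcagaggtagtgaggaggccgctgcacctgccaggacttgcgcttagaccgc

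Idi1 (chr13:8885356-8885655, plus strand): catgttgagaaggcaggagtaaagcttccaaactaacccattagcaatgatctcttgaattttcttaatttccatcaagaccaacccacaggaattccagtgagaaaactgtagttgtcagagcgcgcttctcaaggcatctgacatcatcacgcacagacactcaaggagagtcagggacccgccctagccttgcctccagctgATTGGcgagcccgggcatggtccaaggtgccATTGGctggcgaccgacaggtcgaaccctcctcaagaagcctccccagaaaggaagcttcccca

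Srebf2 (chr15:82147019-82147318, plus strand): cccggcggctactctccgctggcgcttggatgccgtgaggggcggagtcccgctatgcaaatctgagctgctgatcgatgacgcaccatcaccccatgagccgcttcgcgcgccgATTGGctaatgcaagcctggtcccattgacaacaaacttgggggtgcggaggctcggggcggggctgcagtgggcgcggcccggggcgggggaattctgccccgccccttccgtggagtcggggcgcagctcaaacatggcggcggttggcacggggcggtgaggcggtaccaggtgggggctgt

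The table of promoters held 33 windows for 25 of the 31 genes. CCAAT occurred in 22 of the 33 windows, 66.7%, and in 37.4% of all 32851 mouse windows of the same length. The Hmgcs1 window holds 4 copies, Msmo1 3, Idi1 2, and Insig1 and Srebf2 1 each. The sterol element core CACNCCAC occurred in 3 of the 33 windows, 9.09%, those of Hmgcs1, Insig1 and Acat2, against 6.24% of all windows. Its longer form TCACNCCAC, which contains the core, was found in the Hmgcs1 window and in 1.24% of all windows. A match is a description of the letters and not a binding site.

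Total counts ran from 37506188 in the uninjured library to 51089267 in injured 2, and the genes described here took between 0.152% of them (injured 1) and 0.344% (sham 2). Levels are counts scaled to a fixed library total (CPM, per 1000000) after adjustment by the trimmed mean of M-values. Sham 1 and injured 1 stood apart from the other libraries. Their 45S and 18S ribosomal RNA rows took 13.1% and 12.4% of counts, against 2.57% to 4.77% elsewhere. Neutrophil markers summed to 10997 and 6789 CPM in these 2 libraries and to 95.3 to 908 CPM in the other 4. Fold changes without both are given with the results.

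Of the defining stem cell surface genes, Itgav ranged from 31.1 to 116 CPM and Cd200 from 30.96 to 160.2 CPM, so both were present in every library. Genes that a stem cell sort usually selects against were at or near 0 in sham 2 (Ptprc, Enpep and Eng at 0, Tek at 0.580 CPM). Elsewhere they varied: Eng was highest in sham 1 at 201 CPM, Tek in uninjured at 61.7 CPM and Ptprc in injured 1 at 24.8 CPM, followed by injured 2 at 15.1 CPM. Fat cells make fatty acids in bulk. Of 10 adipocyte markers, between 2 and 6 were at 0 in each library, Lep and Retn in all 6, and the sum ran from 7.26 CPM in sham 2 to 441 CPM in sham 1. Fabp4, which endothelial cells also express, gave 2.98 and 397 CPM of these 2 sums.

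After injury no cholesterol or fatty acid gene passed the test. By edgeR's quasi-likelihood test 0 of 31 passed an adjusted p of 0.05 against sham control (0% of all 16752 genes tested did), and 0 of 31 had even an unadjusted p under 0.05, a mark that 4.64% of all genes reached. DESeq2 called 0 of the 31 genes where it called 2.2% of all genes, and limma-voom called 0. At an unadjusted p under 0.05 DESeq2 had 1 of the 31, against 9.64% of all genes. The smallest adjusted p among the 31 was 0.865 by edgeR and 0.165 by DESeq2, the latter for Acacb. A p that misses the threshold does not show that levels were alike: with 2 sham libraries that differ widely, changes of the size seen here could not be told from the spread.

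Most fold changes of sterol genes lay below 0, and those of fatty acid genes were divided. Against sham control 10 of 31 genes had a log2 fold change above 0 (53.7% of all genes did), with a median of -0.31 beside 0.09 over all genes. The 18 sterol synthesis genes, those of the mevalonate and squalene lists, had 13 below 0 and a median of -0.42. The 6 control and transport genes had 5 below 0 and a median of -0.17. The 7 fatty acid genes had 4 above 0 and a median of 0.36. With library size as the single scaling, the median of all genes moved from 0.09 to 0.23 and that of the 31 genes to -0.14, so the gap between them went from -0.39 to -0.37.

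The direction depended on sham 2. Without it 23 of 31 genes stood above 0 and their median turned to 0.57, beside 0.30 over all genes. Without sham 1 the median was -0.47, and without both sham 1 and injured 1 it was -0.51, with 12 above 0 each time. Without both, 5 of the 31 genes had an unadjusted p under 0.05, where 11.0% of all genes did, and the smallest adjusted p was 0.284 (edgeR). Single genes then had log2 fold changes of -1.58 for Hmgcs1, -1.30 for Insig1, -1.55 for Msmo1, -1.51 for Mvd, -0.57 for Srebf2, 0.29 for Dhcr7, 0.45 for Acly and 2.97 for Acacb. In all 3 of these fits a single sham library is assumed to vary like the other groups.

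**Figure D1:**
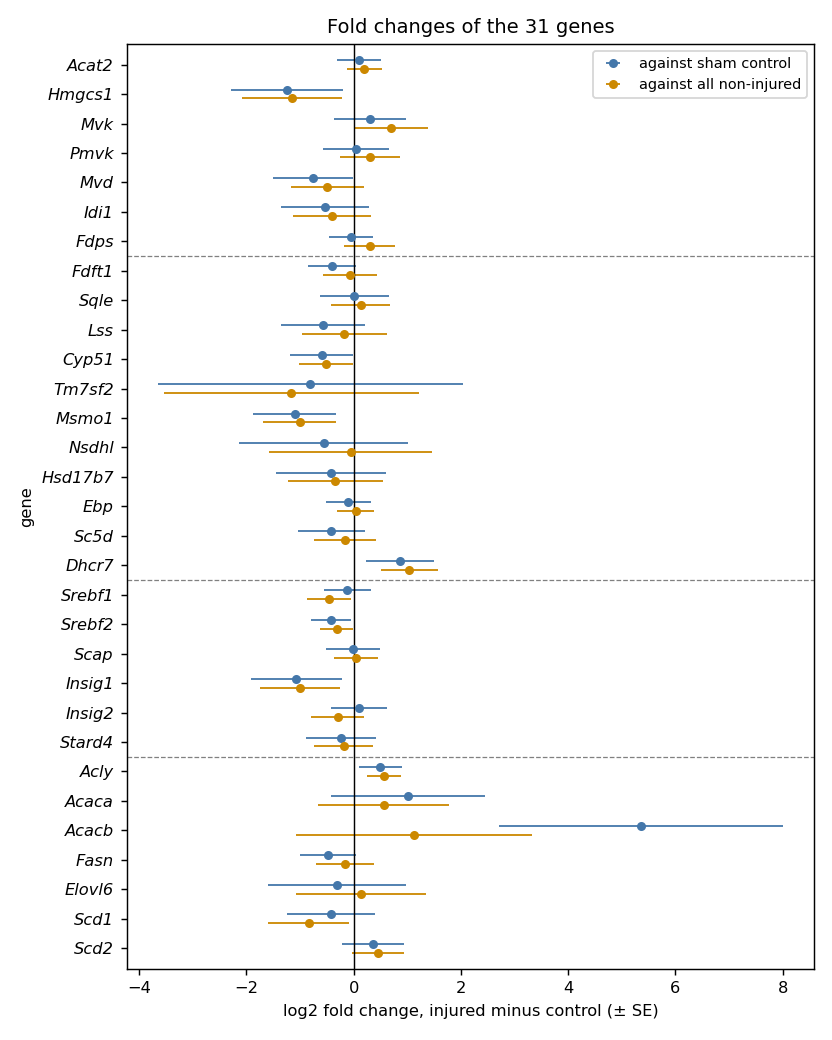
Log2 fold changes of the 31 genes, injured minus control (x axis), with each gene on the y axis and bars giving ± SE, against sham control (blue, n = 3 and 2) and against all non-injured libraries (orange, n = 3 and 3). Dashed lines part the 4 role groups. Hmgcs1, Msmo1 and Insig1 lie near -1 in both comparisons, and the widest bars belong to Tm7sf2, Acacb and Nsdhl.

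In the mevalonate pathway, Hmgcs1 had the widest range. It encodes the cytosolic synthase that makes HMG-CoA, and stood at 68.1 and 551 CPM in sham 1 and 2, 250.3 CPM in uninjured, and 24.9, 127 and 241 CPM in injured 1, 2 and 3. Sham 2 was the highest and injured 1 the lowest, and the values of sham and injured libraries overlapped. The mean was 131 ± 108 CPM in injured (SD, n = 3) and 309.6 ± 341 in sham control (SD, n = 2). The difference on the log2 scale was -1.24 ± 1.05 (SE; edgeR adjusted p = 0.874), which turned to 0.94 without sham 2.

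The last mevalonate step is the decarboxylation by Mvd, which stood at 13.0 and 84.9 CPM in sham 1 and 2, 23.6 CPM in uninjured, and 27.1, 27.3 and 32.4 CPM in injured 1, 2 and 3. The injured libraries lay close together, between the 2 sham libraries. Its log2 fold change against sham control was -0.76 ± 0.74 (SE), or 1.16 without sham 2. Idi1, the isomerase that yields the reactive isoprene unit, stood at 31.6 and 198 CPM in sham 1 and 2, 83.5 CPM in uninjured, and 33.0, 83.2 and 121 CPM in injured 1, 2 and 3. Its sham libraries were the lowest and the highest of the 6.

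Mevalonate kinase (Mvk) and phosphomevalonate kinase (Pmvk) did not follow Hmgcs1. Mvk stood at 13.8 and 32.9 CPM in sham 1 and 2, 6.62 CPM in uninjured, and 45.5, 18.2 and 23.1 CPM in injured 1, 2 and 3, and Pmvk at 15.6 and 39.5 CPM in sham 1 and 2, 13.9 CPM in uninjured, and 38.7, 19.5 and 27.5 CPM in injured 1, 2 and 3. For Mvk injured 1 was the highest library, and for both genes the uninjured library was the lowest. Farnesyl pyrophosphate synthase (Fdps) stood at 103 and 190.4 CPM in sham 1 and 2, 52.0 CPM in uninjured, and 159, 115 and 153 CPM in injured 1, 2 and 3, again with the uninjured library lowest. Acat2, which joins 2 acetyl-CoA into the first intermediate, varied least, from 31.2 to 48.2 CPM. Of its 31-base words 43.7% also occur in transcripts of the neighbouring copy Acat3, and the Acat2 to Acat3 count ratio stayed between 2.92 and 3.29 in all 6 libraries, so the levels of both are uncertain. Transcripts of other genes share 18.8% of the words of Idi1 and 27.9% of those of Fdps on the same strand, which makes their levels less certain.

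**Figure D2:**
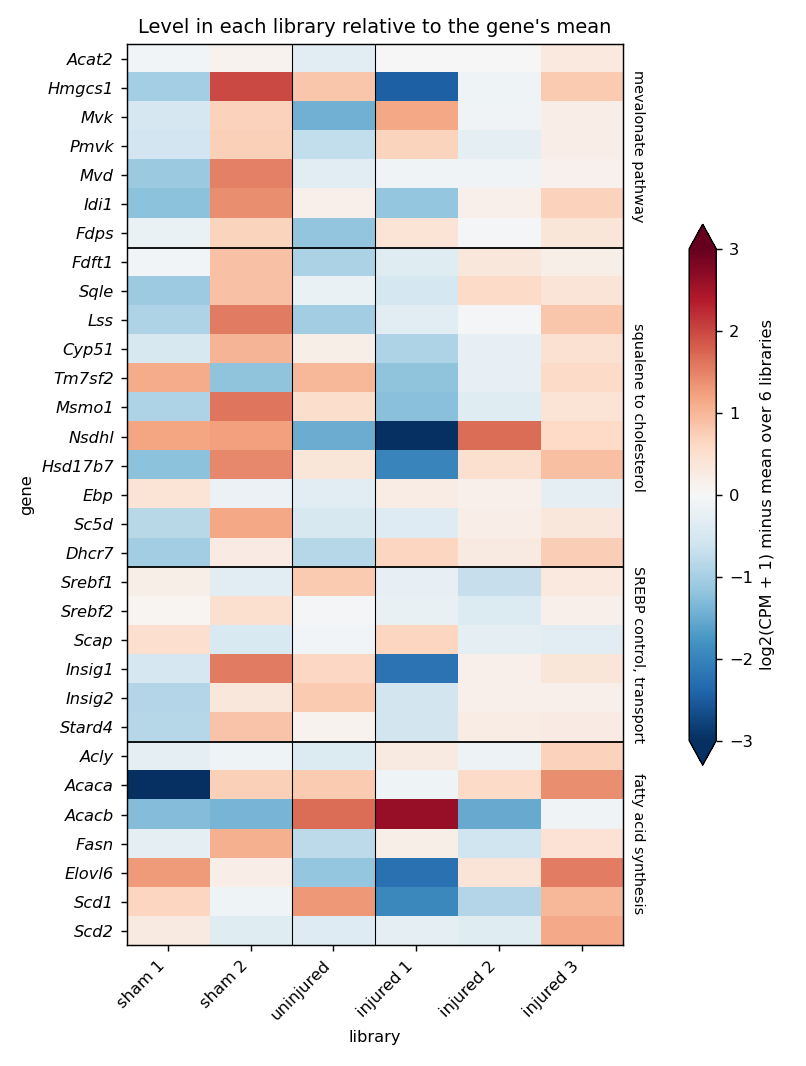
Level of each of the 31 genes (y axis, by role) in each of the 6 libraries (x axis), as log2(CPM + 1) minus the gene's mean over the libraries. Sham 2 is above the mean for most sterol genes and injured 1 is far below it for Hmgcs1, Nsdhl, Hsd17b7 and Insig1, while injured 3 is highest for 4 of 7 fatty acid genes.

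Among the enzymes from squalene to cholesterol, Msmo1 had the same order of libraries as Hmgcs1. It removes methyl groups from the sterol ring and stood at 52.0 and 306 CPM in sham 1 and 2, 143 CPM in uninjured, and 41.1, 77.4 and 131 CPM in injured 1, 2 and 3. Sham 2 was again highest and injured 1 lowest. Its log2 fold change of -1.10 ± 0.78 (SE; edgeR unadjusted p = 0.201) had the smallest p of this branch and turned to 0.68 without sham 2. Lanosterol demethylase (Cyp51) stood at 93.0 and 264 CPM in sham 1 and 2, 147 CPM in uninjured, and 67.6, 109 and 178 CPM in injured 1, 2 and 3. Injured minus sham was -0.59 ± 0.59 on the log2 scale (SE), or 0.35 without sham 2. Squalene synthase (Fdft1), the first enzyme committed to sterols, stood at 73.0 and 143 CPM in sham 1 and 2, 39.0 CPM in uninjured, and 59.4, 96.8 and 87.5 CPM in injured 1, 2 and 3. Its fold change was -0.41 ± 0.45 (SE), or 0.16 without sham 2, and 17.6% of its words lie opposite transcripts of the adjacent gene Ctsb, which matters if counting ignored strand.

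Dhcr7, the reductase that makes cholesterol from its last precursor, was the single gene of the 31 whose injured libraries all exceeded every control. It stood at 8.57 and 22.3 CPM in sham 1 and 2, 9.86 CPM in uninjured, and 29.7, 22.6 and 31.9 CPM in injured 1, 2 and 3. The mean was 28.1 ± 4.83 CPM in injured (SD, n = 3), 15.4 ± 9.72 in sham control (SD, n = 2) and 13.6 ± 7.59 in all non-injured libraries (SD, n = 3). Injured 2 and sham 2 were nearly level, at 22.6 and 22.3 CPM. The log2 fold change was 0.86 ± 0.64 against sham control and 1.04 ± 0.54 against all non-injured libraries (SE; edgeR adjusted p = 0.865 and 0.776). The first value was 0.33 without sham 1 and 1.71 without sham 2. Injured libraries lay wholly above sham control for 11.9% of all genes tested and wholly below for 9.12%, against 1 and 0 of the 31 genes here, so 1 gene of 31, 3.23%, does not exceed the background share.

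The remaining enzymes of this branch gave no separation. Squalene epoxidase (Sqle), a rate-limiting step, stood at 44.7 and 176 CPM in sham 1 and 2, 82.7 CPM in uninjured, and 65.7, 142 and 126 CPM in injured 1, 2 and 3. Its log2 fold change was 0.01 ± 0.64 (SE). Lanosterol synthase (Lss), which closes the ring, stood at 13.5 and 79.8 CPM in sham 1 and 2, 12.4 CPM in uninjured, and 20.9, 25.5 and 47.9 CPM in injured 1, 2 and 3. The desaturase Sc5d stood at 26.2 and 107 CPM in sham 1 and 2, 33.7 CPM in uninjured, and 36.1, 54.0 and 59.8 CPM in injured 1, 2 and 3. For all 3 genes sham 2 was the highest library. Hsd17b7, the 3-ketosteroid reductase, stood at 10.6 and 72.1 CPM in sham 1 and 2, 34.1 CPM in uninjured, and 5.91, 36.9 and 49.6 CPM in injured 1, 2 and 3, and Nsdhl, the dehydrogenase that acts beside it, at 21.8 and 22.7 CPM in sham 1 and 2, 2.56 CPM in uninjured, and 0.0905, 31.1 and 14.0 CPM in injured 1, 2 and 3. Nsdhl had 4 counts in injured 1 against 1884 in injured 2, so its level within the injured group ran from near 0 to the highest of the 6 libraries. Tm7sf2, a sterol reductase, was at 0 counts in 2 libraries, sham 2 and injured 1, and peaked at 3.97 CPM in sham 1. The sterol isomerase Ebp was steady, from 43.0 to 71.1 CPM.

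**Figure D3:**
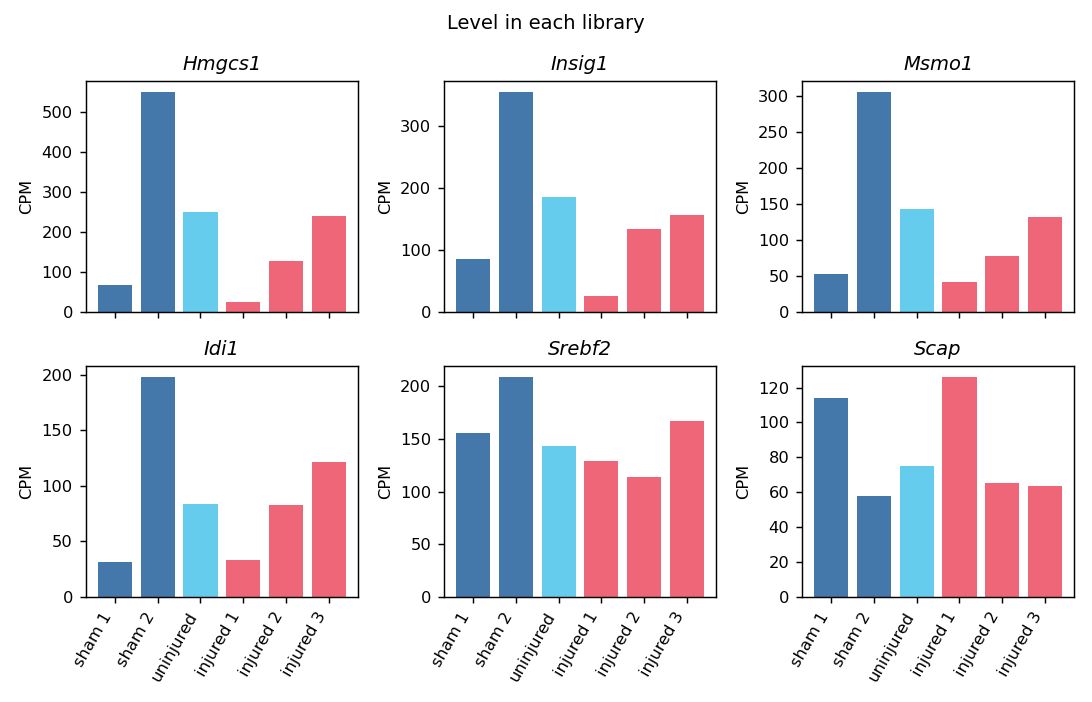
CPM (y axes, from 0) of Hmgcs1, Insig1, Msmo1, Idi1, Srebf2 and Scap in each library (x axis), 1 bar a library, sham control in blue, uninjured in light blue and injured in red. The first 4 genes share a peak in sham 2 and low bars in sham 1 and injured 1, whereas Srebf2 and Scap vary by at most 2.19-fold.

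Among the control genes Insig1 varied most, by 14.0-fold across libraries, and the others by 1.84-fold to 3.46-fold. Insig1, the sterol-regulated anchor of the SREBP complex, stood at 84.8 and 355 CPM in sham 1 and 2, 186 CPM in uninjured, and 25.3, 133 and 156 CPM in injured 1, 2 and 3. Hmgcs1, Msmo1 and Insig1 had the same order of libraries, with sham 2 highest, then the uninjured library, injured 3, injured 2, sham 1 and injured 1. Its injured minus sham difference was -1.07 ± 0.85 (log2, SE; edgeR adjusted p = 0.865), or 0.31 without sham 2. Insig2, the second anchor, stood at 23.6 and 56.7 CPM in sham 1 and 2, 77.1 CPM in uninjured, and 29.8, 49.6 and 49.4 CPM in injured 1, 2 and 3. For Insig2 the fold change was 0.10 ± 0.52 on the log2 scale (SE).

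Srebf2 stood at 156 and 209 CPM in sham 1 and 2, 143 CPM in uninjured, and 129, 113 and 167 CPM in injured 1, 2 and 3, within 1.84-fold across libraries. On the log2 scale injured minus sham was -0.42 ± 0.37 (SE; edgeR unadjusted p = 0.298). Srebf1 stood at 98.8 and 69.4 CPM in sham 1 and 2, 151 CPM in uninjured, and 73.6, 53.2 and 106 CPM in injured 1, 2 and 3, highest in the uninjured library. The log2 fold change of Srebf1 was -0.12 ± 0.43 against sham control and -0.46 ± 0.41 against all non-injured libraries (SE). Scap, the escort that carries SREBPs to the Golgi, stood at 114 and 57.6 CPM in sham 1 and 2, 74.9 CPM in uninjured, and 126, 65.2 and 63.8 CPM in injured 1, 2 and 3. It was highest in injured 1 and sham 1, the libraries where Insig1 was lowest. Its log2 fold change was -0.01 ± 0.50 (SE). The sterol carrier Stard4 stood at 13.7 and 47.4 CPM in sham 1 and 2, 27.8 CPM in uninjured, and 17.4, 30.1 and 30.7 CPM in injured 1, 2 and 3.

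Sham 2 was the highest of the 6 libraries for 12 of the 18 sterol synthesis genes, 66.7%, and for 14.0% of all genes tested. For 16 of these 18 genes it exceeded sham 1, with a median difference of 1.39 on the log2(CPM + 1) scale, where the median over all genes was 0 and the lower and upper quartiles were -0.72 and 0.79. Within the injured group, injured 3 exceeded injured 1 for 14 of the 18, by a median of 0.82 beside 0.12 over all genes. Across groups, injured 1 minus sham 1 had a median of 0.07 over the 18 genes, injured 2 minus sham 2 of -0.88 and injured 3 minus sham 2 of -0.55. Over all genes these medians were 0, 0.0012 and 0.07.

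Summed over the 18 genes, the level was 701 and 2378 CPM in sham 1 and 2, 1012 in uninjured and 756, 1085 and 1419.6 in injured 1, 2 and 3. The 2 lowest sums were in sham 1 and injured 1, the libraries with the most neutrophil, macrophage and erythroid RNA. The 2 highest were in sham 2 and injured 3, where 10 skeletal lineage genes also summed highest, to 119980.0 and 141970.0 CPM. In the other libraries that sum was 29864 CPM in sham 1, 36539.9 in uninjured, 72567 in injured 1 and 53219.8 in injured 2. Collagen genes made up most of the 2 highest sums, with Col1a1 alone at 67512 CPM in sham 2 and 61146 CPM in injured 3. Not all of the 10 genes followed the sum. Pdgfra and Prrx1 were highest in uninjured, at 242 and 130 CPM, and Scx in injured 2, at 89.3 CPM. Macrophage markers, all 10 of which had a row, summed to 2893 and 47.3 CPM in sham 1 and 2, 176 in uninjured and 4855, 1218 and 37.3 in injured 1, 2 and 3. In sham 2, 4 of them were at 0. Schwann cells make cholesterol for myelin, and their 12 markers summed to 5782 CPM in sham 1, where the sterol sum was lowest, and to 359 to 993 CPM in the other 5 libraries. The part these cells play in the sterol levels was not tested. In bulk samples, fewer cells of a type and less RNA per cell cannot be told apart.

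**Figure D4:**
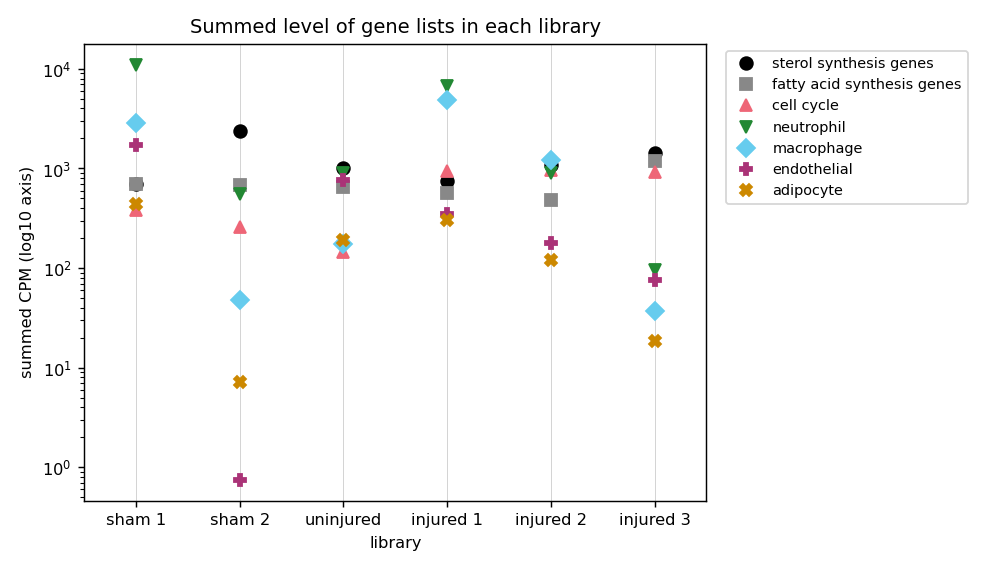
Summed CPM (y axis, log10) of the sterol synthesis genes, the fatty acid synthesis genes and 5 marker lists in each library (x axis), 1 symbol a list. The sterol sum lies between 701 and 2378 CPM in all libraries, while neutrophil, macrophage, endothelial and adipocyte sums vary far more and the cell cycle sum is above 900 CPM in the 3 injured libraries alone.

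The summed level of 22 cell cycle genes was higher in every injured library than in any control. Taken singly, 17 of the 22 genes showed the same, as did 9.23% of all genes tested against all non-injured libraries. The sum was 386 and 259.7 CPM in sham 1 and 2, 147 in uninjured and 949, 975 and 915 in injured 1, 2 and 3. The sterol sums did not follow this order: sham 2 had the highest sterol sum and the second lowest cell cycle sum.

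In fatty acid synthesis the genes shared no single order of libraries. Injured 3 was highest for Acly, Acaca, Elovl6 and Scd2, sham 2 for Fasn, the uninjured library for Scd1 and injured 1 for Acacb. Acly, the ATP citrate lyase, stood at 119.7 and 131 CPM in sham 1 and 2, 108 CPM in uninjured, and 173, 128 and 230.2 CPM in injured 1, 2 and 3. Injured 2 lay between the sham libraries, so the groups overlapped. The log2 fold change was 0.50 ± 0.40 against sham control and 0.56 ± 0.32 against all non-injured libraries (SE; edgeR unadjusted p = 0.251 and 0.12). Fatty acid synthase (Fasn) stood at 88.7 and 227 CPM in sham 1 and 2, 62.1 CPM in uninjured, and 123, 71.2 and 147 CPM in injured 1, 2 and 3, with sham 2 highest and the uninjured library lowest. The elongase Elovl6 stood at 19.7 and 8.78 CPM in sham 1 and 2, 2.80 CPM in uninjured, and 0.792, 10.04 and 23.7 CPM in injured 1, 2 and 3, so the injured group held both the lowest and the highest library.

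Acetyl-CoA carboxylase has a cytosolic form, Acaca, that feeds chain synthesis and a mitochondrial form, Acacb, that restrains fatty acid oxidation. Acaca stood at 0.270 and 20.1 CPM in sham 1 and 2, 21.1 CPM in uninjured, and 10.8, 18.2 and 32.5 CPM in injured 1, 2 and 3. Sham 1 had 10 counts against 728 in sham 2, and the log2 fold change of 1.01 ± 1.44 (SE) became 0.03 without sham 1, 6.23 without sham 2 and 2.99 by limma-voom. Transcripts of other genes share 33.4% of the 31-base words of Acaca, mostly with Gm5182. Acacb stood at 0.189 and 0.110 CPM in sham 1 and 2, 8.30 CPM in uninjured, and 17.0, 0.0330 and 1.73 CPM in injured 1, 2 and 3. Its counts were 7 and 4 in sham control, 341 in uninjured, then 753, 2 and 81 in injured, so injured 1 made up most of the injured mean. It had the smallest p of the 31 genes. Its log2 fold change was 5.36 ± 2.65 (SE; edgeR unadjusted p = 0.0834, adjusted p = 0.865), or 2.54 without injured 1 and 2.52 by limma-voom. Against all non-injured libraries the value was 1.12 ± 2.20 (SE), and without injured 1 it was -1.70.

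The stearoyl-CoA desaturases Scd1 and Scd2 put the double bond into saturated fatty acids. Per kilobase of exon, which gene of the 31 had the highest level changed with the library. Scd2 led in sham 1, injured 1 and injured 3, at 56.8, 38.9 and 104 CPM per kilobase. Hmgcs1 led in sham 2 at 120.0, and Insig1 led in uninjured and injured 2 at 60.2 and 43.1 CPM per kilobase. The length used joins all annotated exons of a gene, and the order depends on that choice. In injured 1 Fdps came close to Scd2, at 37.9 CPM per kilobase. Scd1 stood at 155 and 91.1 CPM in sham 1 and 2, 244 CPM in uninjured, and 25.4, 53.2 and 197 CPM in injured 1, 2 and 3. Scd2 stood at 310.2 and 199 CPM in sham 1 and 2, 199 CPM in uninjured, and 213, 199.5 and 566 CPM in injured 1, 2 and 3. The log2 fold changes were -0.42 ± 0.82 for Scd1 and 0.36 ± 0.58 for Scd2 against sham control (SE). For Scd2 injured 1 and 2 lay within the range of the controls and injured 3 above it, and without injured 3 the fold change was -0.34.

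Ratios of related genes within a library do not depend on scaling between libraries. The Scd2 to Scd1 count ratio was 2.00 and 2.19 in sham 1 and 2, 0.814 in uninjured, and 8.38, 3.75 and 2.88 in injured 1, 2 and 3. All injured libraries lay above all controls. The mean log2 ratio was 2.17 ± 0.80 in injured and 0.61 ± 0.79 in non-injured libraries (SD, n = 3 each), a difference of 1.55 with a 2-sided exact permutation p of 0.1, the smallest that 3 against 3 allows. This ratio was 1 of 7 computed and was picked out after its values were seen. Scd1 shares 8.14% and Scd2 6.81% of its 31-base words with other genes, mainly Scd3. The Insig1 to Insig2 ratio was 3.60 and 6.27 in sham 1 and 2, 2.41 in uninjured, and 0.850, 2.69 and 3.16 in injured 1, 2 and 3 (exact permutation p = 0.3, 2-sided). The Srebf2 to Srebf1 ratio was 1.57, 3.01, 0.944, 1.75, 2.13 and 1.58 in the same order of libraries (exact permutation p = 0.8, 2-sided).

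**Figure D5:**
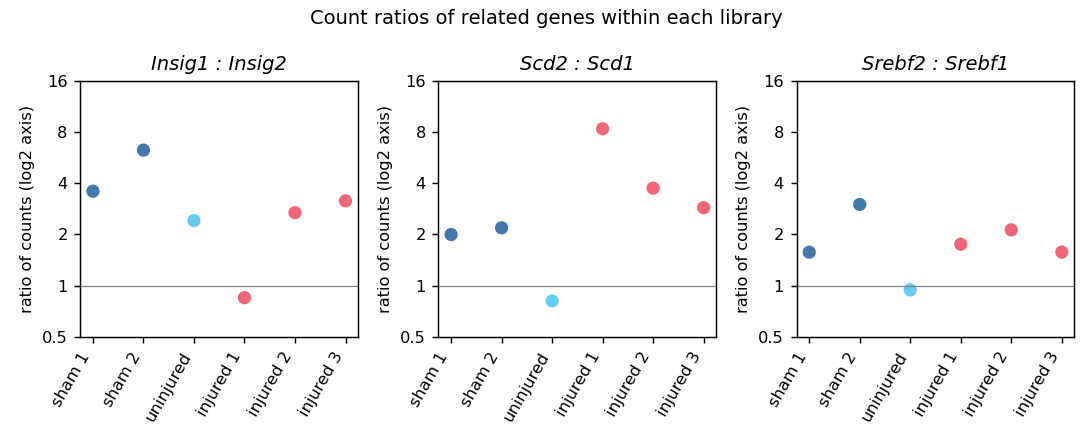
Count ratios (y axes, log2) of Insig1 to Insig2, Scd2 to Scd1 and Srebf2 to Srebf1 in each library (x axis), 1 point a library, sham control in blue, uninjured in light blue and injured in red. The Scd2 to Scd1 ratio lies at 2.88 or above in the 3 injured libraries and at 2.19 or below in the other 3, while the remaining ratios overlap between groups.

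Against all non-injured libraries, which share the sham and injured libraries with the first comparison, no gene passed either. By edgeR 0 of 31 genes passed (0% of all 14110 tested) and 0 had an unadjusted p under 0.05, against 7.43% of all genes. DESeq2 called 0 of the 31 where it called 2.45% of all genes, and had 0 at an unadjusted p under 0.05, where 10.3% of all genes lay. By limma-voom the count was also 0. Fold changes were above 0 for 13 of 31 genes, with 50.1% of all genes on that side, and the median was -0.16 beside 0.00 over all genes. That median turned to 0.36 without sham 2, with 20 genes above 0, and to 0.03 without injured 1. Only Dhcr7 lay wholly above the controls and 0 genes wholly below, where the shares over all genes were 9.23% and 7.07%. The uninjured library itself was the lowest of the 6 for 7 of 18 sterol synthesis genes, 38.9%. With ties counted it was lowest for 30.9% of all genes tested against sham control. For Hmgcs1, Insig1 and Msmo1 it was second highest.

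Other genes of the same pathways were read from 5 lists. By edgeR no gene of the 5 lists passed in either comparison, and the fifth list, fatty acid uptake and oxidation, is given with the other observations. Of 11 genes that process or degrade the SREBP machinery, 1 had an unadjusted p under 0.05 against sham control, where 4.64% of all genes did (edgeR). This was Erlin2, an endoplasmic reticulum membrane protein that in human cells helps hold back SREBP activation, at 10.5 and 11.9 CPM in sham 1 and 2, 13.3 CPM in uninjured, and 38.3, 52.9 and 36.3 CPM in injured 1, 2 and 3. Every injured library exceeded every control, which held for 2 of the 11 genes and for 9.23% of all genes tested against all non-injured libraries. The change on the log2 scale was 1.92 ± 0.51 (SE; edgeR unadjusted p = 0.00747, adjusted p = 0.865). DESeq2 called Erlin2 at adjusted p = 0.0113, where it called 2.2% of all genes. The ubiquitin ligase Rnf139 stood at 27.2 and 25.5 CPM in sham 1 and 2, 29.4 CPM in uninjured, and 38.0, 42.9 and 39.3 CPM in injured 1, 2 and 3, with a fold change of 0.61 ± 0.42 (SE).

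Of 20 genes for cholesterol uptake, storage and export, 1 had an unadjusted p under 0.05 against sham control, where 4.64% of all genes did (edgeR). That gene was Mylip, a ubiquitin ligase that removes lipoprotein receptors from the surface. It stood at 38.8 and 28.2 CPM in sham 1 and 2, 64.5 CPM in uninjured, and 8.62, 12.5 and 16.6 CPM in injured 1, 2 and 3, lower in all 3 injured libraries than in any control. Injured libraries lay wholly above all controls for 2 and wholly below for 2 of the 20 genes, against 9.23% and 7.07% of all genes tested. The log2 fold change of Mylip was -1.42 ± 0.51 against sham control and -1.81 ± 0.49 against all non-injured libraries (SE; edgeR adjusted p = 0.865 and 0.452). DESeq2 did not call the first (adjusted p = 0.182) and called the second at adjusted p = 0.0307, where it called 2.45% of all genes. The lipoprotein receptor Lrp8 stood at 14.1 and 8.73 CPM in sham 1 and 2, 0.292 CPM in uninjured, and 24.6, 25.2 and 33.3 CPM in injured 1, 2 and 3. Of 16 further isoprenoid and sterol genes 14 were tested, 7 on each side of 0. Among them the mitochondrial thiolase Acat1 stood at 54.1 and 68.6 CPM in sham 1 and 2, 75.2 CPM in uninjured, and 77.6, 88.0 and 91.0 CPM in injured 1, 2 and 3. Its injured libraries all exceeded the controls, by 0.48 ± 0.36 on the log2 scale against sham control (SE; edgeR adjusted p = 0.865). The same order held for 2 of the 14 genes, beside 9.23% of all genes tested.

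Among 26 other lipogenic genes, 14 had a fold change above 0 against sham control, where 53.7% of all genes did. Mlxipl, a glucose-responsive activator of lipogenesis, had 3 and 150 counts in sham 1 and 2, 161 in uninjured, then 0 in every injured library. It passed the filter through sham 2 and uninjured alone and was not tested in the second comparison, so no p is given for it. With 3 counts in sham 1 the sham mean rests on sham 2, so no fold change is given either. The elongation enzyme Hsd17b12 stood at 38.2 and 28.0 CPM in sham 1 and 2, 44.2 CPM in uninjured, and 51.3, 88.7 and 66.7 CPM in injured 1, 2 and 3. The injured libraries all exceeded the controls, and the log2 fold change of Hsd17b12 was 1.06 ± 0.44 (SE; edgeR unadjusted p = 0.0493). Of the 25 genes tested against all non-injured libraries, 3 lay wholly above the controls, beside 9.23% of all genes.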

How the data were processed

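The deposited table holds whole-number counts per gene for 6 libraries. The submitters' processing notes name Salmon 0.12.0, DESeq2 1.22.2, DESeq and the builds GRCm38.p6 and mm9, without a role for each, and the sources used here do not state how counts were summed to genes or whether strand was used. The input to cDNA synthesis was 150 pg of total RNA, per the labels' protocols, an input at which amplification can add spread between libraries.

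From these counts, genes were filtered with filterByExpr (minimum 10), scaled by TMM and tested with edgeR 4.0.16 (quasi-likelihood F test, Benjamini-Hochberg adjustment over all tested genes, threshold 0.05) in R 4.3.3. Against sham control, all 6 libraries entered as 3 groups (3 residual degrees of freedom); against all non-injured libraries, as 2 groups (4). SE is the fold change divided by the square root of F. DESeq2 1.42.0, limma-voom (limma 3.58.1), other scalings, no filter and leaving out each library were alternatives. Shared 31-base words and exon lengths came from GENCODE M21.

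Genes described in full were the 10 of the set with the smallest unadjusted p plus the SREBP, Scap, Insig, Scd and carboxylase genes; of other lists, the 2 with the smallest p, of which 1 gene is not reported here. The members and lists were chosen with earlier results of these data known. Leaving out sham 1 and injured 1 together was chosen after seeing the data.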

Additional observations from a re-analysis of the deposited data

How the results depend on the processing

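Across the alternatives run, 0 of the 31 genes passed. The number of all genes called, 0 in both comparisons, was 369 and 345 with DESeq2, 1 and 7 with limma-voom, and 3 and 5 without the low-count filter (against sham control and all non-injured libraries); the cause was not tested. With one library left out, the median of the 31 genes ran from -0.48 to 0.57 against sham control and from -0.35 to 0.36 against all non-injured libraries, and limma-voom gave 0.0059 for the second; without both sham 1 and injured 1 the first was -0.51. Left-out ranges against sham control that crossed 0 were -2.07 to 0.94 for Hmgcs1, -1.88 to 0.68 for Msmo1, -1.76 to 0.31 for Insig1, -1.55 to 1.16 for Mvd, -1.16 to 0.35 for Cyp51, -0.81 to 0.16 for Fdft1, -0.40 to 0.87 for Insig2, -0.42 to 0.56 for Scap, -0.44 to 0.16 for Srebf1, -1.67 to 0.02 for Scd1 and -0.34 to 0.71 for Scd2. Against all non-injured libraries they were -1.70 to 5.32 for Acacb, -0.0073 to 1.04 for Acaca, -0.40 to 0.54 for Fdft1, -0.91 to 0.66 for Mvd, -0.64 to 0.11 for Insig2, -0.35 to 0.36 for Scap and -0.24 to 0.72 for Scd2. Without both sham 1 and injured 1, the values that changed sign were Srebf1 0.20, Scap 0.16, Insig2 -0.20 and Scd1 0.46 against sham control, and Acacb -2.26, Fdft1 0.02 and Scap -0.04 against all non-injured libraries. Scap also turned to 0.066 against sham control by library size alone, and to -0.012 against all non-injured libraries with DESeq2 and with relative log expression size factors. Fdft1 turned to 0.087 by library size alone and to 0.12 with limma-voom against all non-injured libraries.

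Sham and injured libraries share replicate numbers 1 and 2, but 2 pairs do not establish a pairing. Deviations from the group means correlated across genes at 0.35 for the pair numbered 1 and 0.01 for the pair numbered 2. Sham 2 and injured 3, which differ in number, correlated higher, at 0.43. With 2 sham libraries the deviations of one mirror those of the other, so these values are not independent. With the replicate block 0 genes and 0 of 30 members tested passed, the members' median was -0.37, 2 members had an unadjusted p under 0.05 where 4.14% of all genes did (edgeR; Hmgcs1 at -1.81 and Insig1 at -1.60, adjusted p = 0.947 for both), and Scap turned to 0.14 and Scd2 to -0.30. Low counts limit Acacb, Acaca, Nsdhl and Tm7sf2, each with under 20 counts in at least 1 library.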

Other observations

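Genes that take up or burn fatty acids were read from a list of 18. The list pools uptake with oxidation, and only oxidation is the opposite flow to synthesis. Against sham control 11 had a log2 fold change above 0 (53.7% of all genes did), with a median of 0.27 beside 0.09 over all genes. By edgeR 0 passed or had an unadjusted p under 0.05, where 4.64% of all genes had one. Against all non-injured libraries 17 were tested and 2 had an unadjusted p under 0.05, where 7.43% of all genes did (edgeR). Decr1, a mitochondrial reductase needed to oxidise unsaturated fatty acids, stood at 11.1 and 19.2 CPM in sham 1 and 2, 19.5 CPM in uninjured, and 51.9, 41.4 and 24.2 CPM in injured 1, 2 and 3. Every injured library lay above every control, with a log2 fold change of 1.37 ± 0.58 against sham control and 1.24 ± 0.47 against all non-injured libraries (SE; edgeR adjusted p = 0.865 and 0.600). Lipoprotein lipase (Lpl), which frees fatty acids from circulating lipoproteins, stood at 65.7 and 26.8 CPM in sham 1 and 2, 103 CPM in uninjured, and 20.4, 23.1 and 8.18 CPM in injured 1, 2 and 3. Here every injured library lay below every control, with log2 fold changes of -1.43 ± 0.62 and -1.93 ± 0.62 (SE; edgeR adjusted p = 0.865 and 0.516). Of the 17 genes, 1 lay wholly above and 1 wholly below all controls, where the shares over all genes were 9.23% and 7.07%.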
